A study of Mus musculus with 121 samples.

Results

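The 35 genes described here encode proteins that replicate DNA or carry cells through mitosis. They were chosen by symbol, and each was found once among the 25759 genes of the liver and gonadal adipose RNA-seq count tables. The C57BL/6 mice carried 3 genotypes of PEP: wild type, written WT, heterozygous, written HET, and knockout, written KO. PEP is read here as Pepd, which encodes prolidase, a peptidase of dipeptides with proline at their end. The mice received their diets from 8 weeks of age for 18 weeks. No source used here says how the allele was made or which sex the mice were. Gonadal adipose tissue was sequenced on chow (4 WT, 8 HET and 5 KO libraries) and on a high-fat diet labelled 45% (HFD; 8 WT, 11 HET and 9 KO). Liver was sequenced on chow (5 WT, 8 HET, 5 KO), HFD (8 WT, 11 HET, 9 KO), a diet labelled Control (5 WT, 4 HET, 1 KO) and the Alios diet (6 WT, 5 HET, 8 KO).

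A cell that divides first licenses its replication origins by loading the ring of MCM proteins that becomes the replicative helicase. Cyclin E and E2F factors drive entry into S phase, cyclins A and B with CDK1 drive entry into mitosis, and spindle proteins and the anaphase-promoting complex then part the chromosomes. Most hepatocytes and mature adipocytes of an adult mouse are not dividing, whereas macrophages of fat tissue are known to divide there in obesity. In bulk tissue, fewer cells of a type and less RNA per cell cannot be told apart.

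The adipose libraries held 4236655 to 6699887 counts and the liver libraries 42692 to 8854246, with the Alios KO 8 liver at the low end. The members together took 1404 to 5118 counts in an adipose library (median 2792) and 79 to 1479 (median 311) in a liver library other than that one. Levels are given in CPM, a gene's count scaled to the library's total after TMM normalization over all libraries of its tissue, unless stated otherwise. The fits were normalized on their own libraries. Pepd followed the labels in liver, with chow means of 44 CPM in WT, 22.1 in HET and 1.62 in KO. One HFD mouse labelled HET had 1.26 CPM of Pepd in its liver and 21.6 in its adipose library, near the KO means of 1.83 and 25.4. In adipose, Pepd averaged 82.9, 57.5 and 17.5 CPM in chow WT, HET and KO. Libraries also carried RNA of other tissues. Summed hepatocyte markers ranged from 13.6 to 50300 CPM and summed epididymis markers from 0.891 to 13800 CPM in adipose, and 23 adipose libraries reached 500 CPM of hepatocyte, epididymis or muscle markers or 50 CPM of testis markers. Adipocyte markers summed to at least 5670 CPM in each adipose library.

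Promoters of such genes are known for E2F sites, which time expression to S phase, and for CCAAT boxes with a cell cycle homology region (CHR), which time it to mitosis. RefSeq promoters (GRCm38.p6) matched 29 of the 35 members, and the 250 bases before each start were searched on both strands. The CHR core TTTGAA or TTCAAA was present in 9 of 29 (31%), against 18.3% of 27025 genes. CCAAT or ATTGG was present in 22 (75.9%), against 37.5%. All 9 members with a CHR core also held a CCAAT box, and 7.34% of all genes held both. The E2F letters TTTGGCGC or GCGCCAAA occurred in 2 members (6.9%, against 0.485%) and TTTCCCGC or GCGGGAAA in another 2, Mcm7 and Cdc6 (6.9%, against 1.03%). The starts are those of RefSeq. In the gene models used for symbols here, the windows of Mcm7 and Cdc6 lie inside the gene. Windows of some other members also lie inside or reach into theirs. A match of letters is a description and not a shown site. The E2F letters were found only in 4 replication genes, Mcm5, Mcm6, Mcm7 and Cdc6. The CHR and CCAAT letters did not divide replication from mitotic genes. Mcm2 and Cdc45 held a CHR core, and the mitotic genes Plk1, Aurka and Bub1b held none. Mcm7, with E2F letters, was not called between diets in adipose, and a link of letters to levels was not tested. The windows of 2 helicase genes, Mcm5 and Mcm6, and of 4 mitotic genes were picked because they hold such letters. They are printed 5′ to 3′ on the gene's strand, with these letters in capitals. They lie at chr8:75109259-75109508 (plus strand), chr1:128359706-128359955 (minus), chr10:69352913-69353162 (minus), chr11:99024190-99024439 (minus), chr19:37376132-37376381 (plus) and chr7:135716380-135716629 (minus) in the order given.
Mcm5: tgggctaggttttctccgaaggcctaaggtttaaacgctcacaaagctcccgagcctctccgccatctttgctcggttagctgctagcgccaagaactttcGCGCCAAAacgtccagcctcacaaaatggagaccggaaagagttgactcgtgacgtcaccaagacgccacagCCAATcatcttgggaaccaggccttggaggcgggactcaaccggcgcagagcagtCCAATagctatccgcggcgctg
Mcm6: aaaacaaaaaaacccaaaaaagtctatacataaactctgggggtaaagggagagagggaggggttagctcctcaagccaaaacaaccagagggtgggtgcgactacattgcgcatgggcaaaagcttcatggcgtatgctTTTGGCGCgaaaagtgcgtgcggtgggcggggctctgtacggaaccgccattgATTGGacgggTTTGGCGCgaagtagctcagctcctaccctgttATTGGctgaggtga
Cdk1: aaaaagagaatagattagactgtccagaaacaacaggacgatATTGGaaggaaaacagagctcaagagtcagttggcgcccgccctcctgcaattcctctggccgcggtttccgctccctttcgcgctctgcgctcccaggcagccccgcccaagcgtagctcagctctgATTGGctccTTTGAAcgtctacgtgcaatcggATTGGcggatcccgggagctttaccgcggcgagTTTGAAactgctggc
Top2a: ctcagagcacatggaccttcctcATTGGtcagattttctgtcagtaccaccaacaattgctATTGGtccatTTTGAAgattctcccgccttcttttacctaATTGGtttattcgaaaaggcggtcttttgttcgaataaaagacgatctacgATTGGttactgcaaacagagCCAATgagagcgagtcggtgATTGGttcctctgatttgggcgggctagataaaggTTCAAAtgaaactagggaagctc
Kif11: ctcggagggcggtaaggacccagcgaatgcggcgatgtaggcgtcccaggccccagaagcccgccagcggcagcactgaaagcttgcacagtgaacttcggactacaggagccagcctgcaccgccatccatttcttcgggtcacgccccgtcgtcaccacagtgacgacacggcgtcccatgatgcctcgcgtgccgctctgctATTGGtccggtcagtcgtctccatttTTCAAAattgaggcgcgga
Mki67: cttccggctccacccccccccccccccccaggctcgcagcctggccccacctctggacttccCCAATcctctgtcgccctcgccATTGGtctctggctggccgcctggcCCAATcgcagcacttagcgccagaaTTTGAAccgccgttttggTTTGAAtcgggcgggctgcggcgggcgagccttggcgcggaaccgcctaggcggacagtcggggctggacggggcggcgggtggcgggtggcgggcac

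Most of these genes were at a higher level on HFD than on chow in adipose tissue. Averaged over the 3 genotypes, 31 of the 34 tested members rose on HFD and none fell (edgeR quasi-likelihood test, adjusted p under 0.05 over 14536 genes). Over all tested genes 48.5% passed, 20.1% in the upward direction. The members' median log2 difference was 0.77, against −0.05 over all genes. Ccnb1, Ccne2 and Kif11 reached the filter on low counts through HFD libraries (19, 6 and 20 HFD libraries against 0, 0 and 1 chow libraries over its cutoff), so their presence in these counts is no support for a rise. The rise was called in 30 members in HET mice, where 34.4% of all genes passed and 15.6% were higher on HFD. It was called in 13 members in KO mice, where 35.5% passed and 15% were higher. In WT mice no member was called by edgeR, against 4.57% of all genes, although DESeq2 called 2, 32 of 34 values were positive and 17 had an unadjusted p under 0.05. The median log2 differences were 0.58 in WT, 0.99 in HET and 0.67 in KO.

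**Figure D1:**
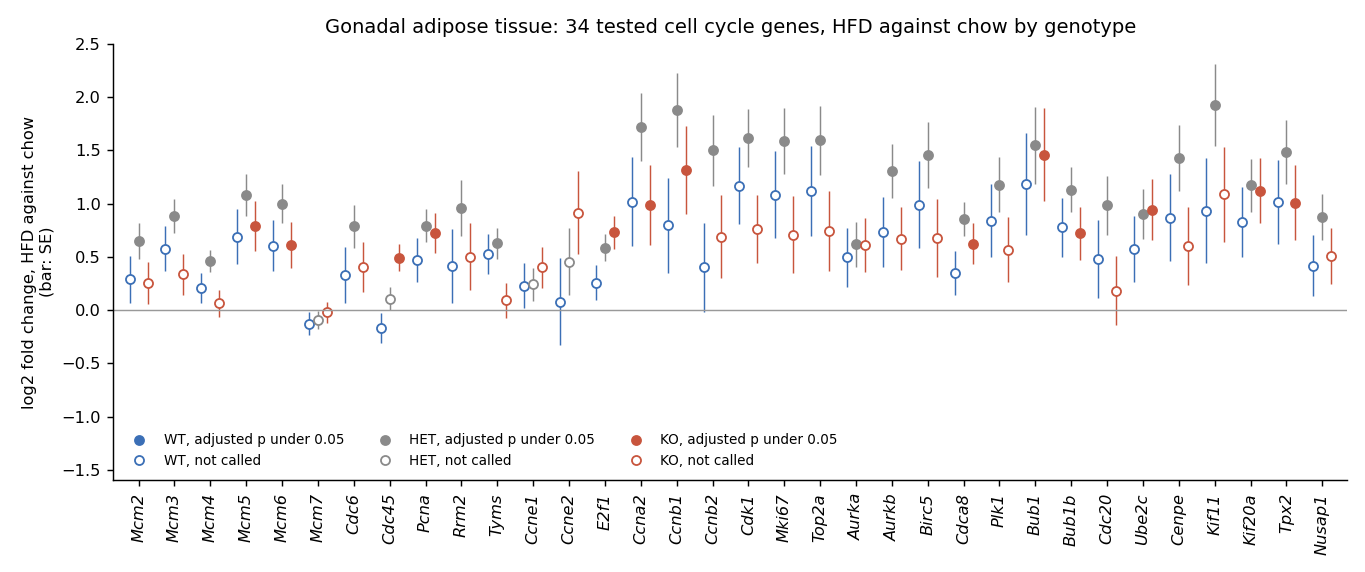
Log2 fold change of HFD against chow in gonadal adipose tissue for the 34 tested members, by genotype, with standard errors as bars and filled points for adjusted p under 0.05. Nearly all points lie above 0, 30 are filled in HET, 13 in KO and none in WT, and Mcm7 lies close to 0 in each genotype.

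The MCM2 to MCM7 proteins form the replicative helicase. In chow WT adipose, Mcm6 was at 19.7, 21.7, 29.8 and 44.5 CPM. In chow HET it ranged from 19.7 to 32.6 CPM with a median of 21.5. In chow KO it was at 22.2, 29.1, 30.3, 36.8 and 41.7 CPM. On HFD, Mcm6 ranged from 22.7 to 64.0 CPM in WT (median 46.3), from 28.8 to 62.3 in HET (median 49.1) and from 25.7 to 75.6 in KO (median 51.7). The diets thus overlapped in each genotype, and in HET 10 of the 11 HFD libraries were above every chow library. The log2 difference of Mcm6 was 1.00 (SE 0.18, adjusted p = 9.8e-05) in HET and 0.61 (SE 0.22, adjusted p = 0.027) in KO. In WT it was 0.60 (SE 0.24, adjusted p = 0.098).

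Mcm5 rose 2.12-fold in HET and 1.72-fold in KO. Its median went from 14.4 CPM on chow to 31.7 on HFD in HET, and from 17.0 to 34.6 in KO. Mcm3 (1.85-fold), Mcm2 (1.57-fold) and Mcm4 (1.38-fold) rose in HET, and in KO their log2 differences were 0.34, 0.26 and 0.06, none called. Mcm7, a subunit of the same ring, stayed apart: its medians were 31.0, 29.0 and 28.6 CPM in chow WT, HET and KO and 28.1, 28.9 and 27.9 CPM on HFD. The log2 differences of Mcm7 were −0.13 (SE 0.11) in WT, −0.09 (SE 0.08) in HET and −0.02 (SE 0.10) in KO, none called. In the gene models used here 12.6% of the exonic length of Mcm7 overlaps exons of Ap4m1, Cops6, Mir25 and Mir93 together.

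Cdc6 helps load the ring, and Cdc45 turns it into an active helicase. Cdc6 had medians of 2.46 CPM on chow and 5.53 on HFD in HET, a 1.72-fold rise (adjusted p = 0.0024). Cdc45 differed from the other members. On chow it was at 9.74, 14.7, 16.1 and 18.6 CPM in WT, at 10.4 to 16.9 in HET (median 12.8) and at 7.49, 8.19, 9.02, 11.3 and 13.0 in KO. On HFD it was at 10.6 to 18.1 CPM in WT (median 13.1), 11.6 to 17.3 in HET (median 14.2) and 13.1 to 16.0 in KO (median 14.0). Only in KO did the diets part, narrowly, with the highest chow library at 13.04 CPM and the lowest HFD library at 13.07. The log2 difference there was 0.49 (SE 0.13, adjusted p = 0.0034). The share of all genes whose groups part in this way was not counted in any comparison. In HET the difference of Cdc45 was 0.11 (SE 0.11) and in WT −0.17 (SE 0.14), neither called. Of the exonic length of Cdc45 6.0% overlaps Ufd1.

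Pcna encodes the clamp that holds DNA polymerase on its template. It had medians of 29.5, 25.2 and 28.2 CPM in chow WT, HET and KO, and of 44.8, 45.7 and 49.6 on HFD. The rise was 1.73-fold in HET (adjusted p = 2e-04) and 1.66-fold in KO (adjusted p = 0.0028), and in WT the value was 1.38-fold (adjusted p = 0.13). Among the suppliers of deoxynucleotides, Rrm2, a subunit of ribonucleotide reductase, rose 1.94-fold in HET, and Tyms, thymidylate synthase, rose 1.54-fold. In KO these 2 genes had log2 differences of 0.50 (SE 0.31) and 0.09 (SE 0.17). Tk1, thymidine kinase, was listed at 0 in all 120 libraries of both tissues and was not tested. Why it is at 0 was not tested, and its values say nothing of its expression.

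E2f1, a transcription factor of the G1/S switch, had a median of 17.8 CPM in chow HET and 28.0 in HFD HET (1.5-fold, adjusted p = 0.00052). In KO the diets parted, with 11.9 to 22.2 CPM on chow and 24.0 to 41.3 on HFD (1.66-fold, adjusted p = 0.00032). Ccne1 and Ccne2, the E cyclins, were not called in any single genotype. Their log2 differences were 0.23 and 0.08 in WT, 0.24 and 0.46 in HET and 0.40 and 0.92 in KO. Averaged over genotypes, Ccne1 rose 1.22-fold (adjusted p = 0.027) and Ccne2 was not called, as were Mcm7 and Cdc45.

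Cdk1, the mitotic kinase, was at 3.48, 4.14, 5.27 and 15.5 CPM in chow WT and at 6.68, 8.32, 11.2, 15.4 and 16.7 in chow KO. In chow HET it ranged from 3.19 to 11.2 CPM (median 4.66). On HFD it ranged from 5.77 to 22.0 in WT (median 17.1), 9.07 to 23.8 in HET (median 20.5) and 9.48 to 30.4 in KO (median 21.3). The HFD medians were close to each other, and the chow KO median of 11.2 was above those of the other chow groups. The log2 difference of Cdk1 was 1.62 (SE 0.28, adjusted p = 4.4e-05) in HET, 1.17 (SE 0.36, adjusted p = 0.052) in WT and 0.76 (SE 0.32, adjusted p = 0.060) in KO. Its partners Ccnb1 (3.67-fold), Ccna2 (3.30-fold) and Ccnb2 (2.83-fold) rose in HET. In KO, Ccnb1 (2.49-fold) and Ccna2 (1.98-fold) were called and Ccnb2 was not (log2 difference 0.69, SE 0.39). Ccnb1 is scarce and passed the filter through HFD libraries, with medians of 0.558 CPM in chow HET and 2.75 in HFD HET.

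Mki67, the gene of the Ki-67 protein that coats mitotic chromosomes and is widely used as a marker of dividing cells, was at 8.0, 12.9, 21.1 and 37.3 CPM in chow WT. In chow HET it ranged from 7.73 to 32.8 CPM (median 13.7), and in chow KO it was at 12.2, 21.9, 22.8, 33.4 and 45.0. On HFD it ranged from 14.8 to 67.5 CPM in WT (median 43.9), 19.8 to 64.2 in HET (median 58.1) and 14.9 to 59.9 in KO (median 51.3). Each HFD group held at least 1 library within the range of its chow group, and 10 of the 11 HFD HET libraries were above every chow HET library. The log2 difference of Mki67 was 1.59 (SE 0.31, adjusted p = 0.00019) in HET, 1.08 (SE 0.41, adjusted p = 0.083) in WT and 0.71 (SE 0.36, adjusted p = 0.12) in KO. Top2a, the topoisomerase that untangles sister chromosomes, followed the same order, with 3.02-fold in HET (called), 2.17-fold in WT and 1.67-fold in KO (neither called).

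**Figure D2:**
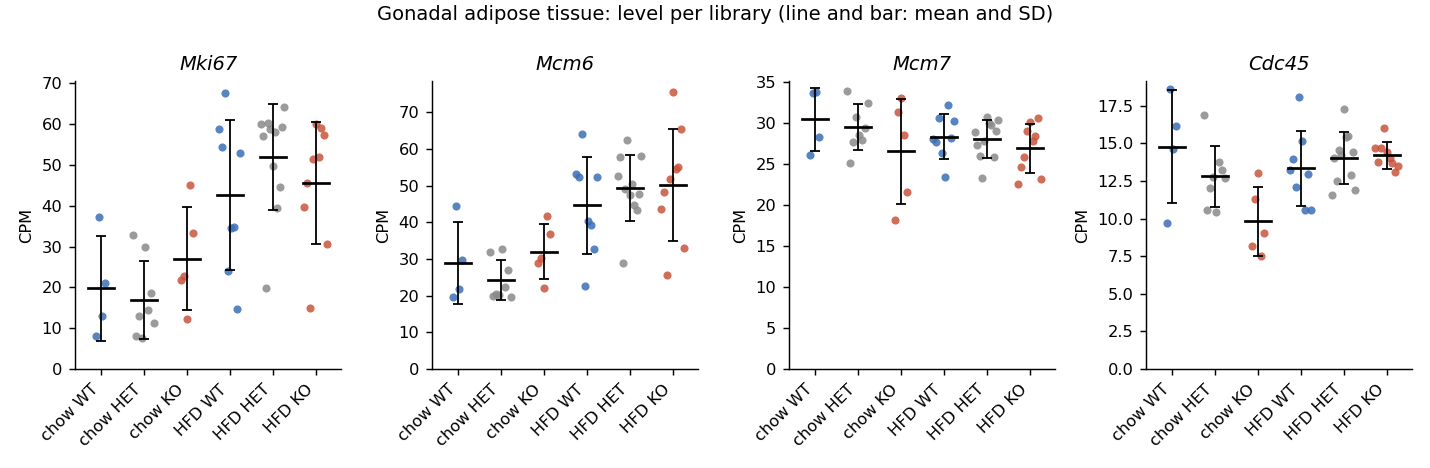
CPM of Mki67, Mcm6, Mcm7 and Cdc45 in each gonadal adipose library by diet and genotype, with the group mean (line) and SD (bar). Mki67 and Mcm6 are higher on HFD with overlap, Mcm7 lies between 18.2 and 33.9 CPM in all groups, and Cdc45 is lowest in chow KO.

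The chromosomal passenger complex corrects faulty attachments of chromosomes to the spindle. Its 3 members here rose in HET: Birc5 (survivin) 2.75-fold, Aurkb (its kinase) 2.48-fold and Cdca8 (borealin) 1.81-fold. Cdca8 was the member whose HET diets did not overlap, with 6.55 to 10.1 CPM on chow and 10.3 to 18.9 on HFD. In KO only Cdca8 was called (1.54-fold, adjusted p = 0.0099), and Aurkb and Birc5 had log2 differences of 0.67 (SE 0.30) and 0.68 (SE 0.36). Of the other mitotic kinases, Plk1 rose 2.26-fold and Aurka 1.53-fold in HET, and neither was called in KO.

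Bub1 and Bub1b delay anaphase until each chromosome is attached, and Cdc20 and Ube2c act in the anaphase-promoting complex that ends the delay. In HET they rose 2.92-fold, 2.19-fold, 1.98-fold and 1.87-fold. In KO, Bub1 (2.75-fold), Ube2c (1.92-fold) and Bub1b (1.65-fold) rose, and Cdc20 did not pass (log2 difference 0.18, SE 0.33). Bub1 had medians of 1.09, 1.70 and 2.02 CPM in chow WT, HET and KO and of 3.32, 5.17 and 5.80 on HFD.

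Among the motors and spindle proteins, Kif11, which pushes the spindle poles apart, is scarce and passed the filter through HFD libraries. It was at 0.345, 0.522, 0.824 and 2.38 CPM in chow WT and at 0.336 to 1.10 in chow HET (median 0.628), against 0.726 to 3.56 in HFD HET (median 2.82). The change in HET was 3.80-fold (log2 1.93, SE 0.39, adjusted p = 0.00024), and in KO Kif11 was not called (2.12-fold, adjusted p = 0.054). Tpx2, which nucleates spindle microtubules, Cenpe, a kinetochore motor, Kif20a, a motor of cytokinesis, and Nusap1, a spindle protein, rose 2.80-fold, 2.69-fold, 2.25-fold and 1.84-fold in HET. Kif20a (2.18-fold) and Tpx2 (2.01-fold) also rose in KO. Of the exonic length of Kif20a 29.3% overlaps Cdc23, and of Ube2c 22.8% overlaps Tnnc2, so reads of these genes could be shared.

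The genotypes differed in how many members were called, and the difference in the diet effect was tested directly. For HET against WT no member was called by edgeR or by DESeq2 (0% of all genes, 1 member with an unadjusted p under 0.05), with all 34 values positive and a median of 0.39. For KO against HET no member was called by edgeR or DESeq2, against 26.5% of all genes, with 5 members under an unadjusted p of 0.05 and 28 of 34 values negative. Leaving out chow KO 3 gave 4 calls, and leaving out chow KO 1 or chow KO 2 gave 1. For KO against WT, Cdc45 was the 1 member called (log2 difference of the differences 0.66, SE 0.19, adjusted p = 0.030, against 6.33% of all genes). The call of Cdc45 was lost (0 members) without chow KO 1, chow KO 4, chow KO 5, chow WT 3 or chow WT 5.

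Single libraries bore on these counts. Chow WT 3 had 33 of 34 members above its group's median and 30 at the group's highest value. Without it, 19 members were called between HFD and chow in WT. That library also had the highest summed macrophage markers of its group (5850 CPM, others 1340 to 3270) and held 134 CPM of testis markers, whose part in its values was not tested. At the other end, HFD HET 11 had 34 of 34 members below its group's median and 28 at the lowest value. HFD KO 3 had 32 below and 29 lowest. Both had less macrophage RNA than the other libraries of their groups (4210 CPM against 5000 to 9860, and 2720 against 3900 to 11200) and more adipocyte RNA (37400 CPM against 16400 to 31200, and 40700 against 17700 to 33400). HFD KO 3 also held 6680 CPM of hepatocyte markers (others 17.9 to 354). The part of these tissues in the members' values was not tested.

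A higher limit of 5000 CPM of hepatocyte, epididymis or muscle markers or 50 CPM of testis markers was reached by 9 adipose libraries. Without them the count in HET was 30, and the HET libraries dropped were HFD HET 2, chow HET 2 and chow HET 5. The HET count was 1 without the 23 libraries over the lower limit of 500 CPM, which left 4 chow and 3 HFD HET libraries. The log2 differences under the lower limit were 1.45 for Mki67, 1.44 for Cdk1, 2.04 for Kif11 and 0.93 for Mcm6. The count in KO was 16 under the higher limit and 1 under the lower, which dropped chow KO 1, chow KO 2 and chow KO 4 and left 2 chow KO libraries. The log2 differences in KO under the lower limit were 1.76 for Bub1 (adjusted p = 0.072), 0.68 for Pcna (adjusted p = 0.13) and 0.35 for Cdc45 (adjusted p = 0.16). Averaged over genotypes the count was 32 under the higher limit and 29 under the lower.

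Markers of cell types moved with diet too. In HET, 10 of 14 macrophage markers and 7 of 7 markers of lipid-associated macrophages rose on HFD, with median log2 differences of 1.00 and 3.01, and 4 of 8 adipocyte markers fell. T and NK cell markers (5 of 11) and B and plasma cell markers (3 of 7) also rose there, as did 3 of 7 fibroblast markers and 3 of 6 epididymis markers. Testis markers (5 of 6, median −5.07), neutrophil markers (3 of 6), erythroid markers (2 of 4) and mesothelial markers (2 of 5) had members that fell in HET, and of 7 endothelial markers 1 rose and 2 fell. Summed macrophage markers ranged from 1180 to 4000 CPM in chow HET and from 4210 to 9860 in HFD HET, with no overlap. In WT none of the macrophage markers was called, and their sums ranged from 1340 to 5850 CPM on chow and from 2090 to 7580 on HFD. In KO, 2 macrophage markers rose and 3 fell, with sums of 2890 to 14800 CPM on chow and 2720 to 11200 on HFD, while 7 of 7 lipid-associated macrophage markers rose (median 3.45). The 7 B and plasma cell markers and the 6 tested neutrophil markers all fell in KO on HFD (medians −3.70 and −3.73), as did 4 of 11 T and NK cell markers and 2 of 6 epididymis markers. Of the macrophage markers 1, Clec4f, a marker of liver macrophages, was at 0 in 19 adipose libraries. The part of cell makeup and of RNA from other tissues in the members' rise was not tested.

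Within each diet, over libraries pooled across genotypes, those with more macrophage RNA had more Mki67. Permutations of the pooled libraries did not keep the genotypes apart. No relation was computed within a chow genotype, so on chow the part of genotype cannot be told apart. Over the 28 HFD libraries, log2(CPM + 1) of Mki67 and of the summed macrophage markers had Pearson's r = 0.84 (permutation p = 1e-05, the smallest the permutations can give, adjusted p = 0.00021) and Spearman's rho = 0.67 (permutation p = 0.00013, adjusted p = 0.0017). Without the 2 libraries farthest from the median marker level r was 0.80. Over the 17 chow libraries r was 0.77 (permutation p = 0.00018, adjusted 0.0018), rho was 0.77 (permutation p = 0.00041, adjusted 0.0022), and r without 2 libraries was 0.75. Within HFD groups r was 0.90 in WT (n = 8, exact permutation p = 0.0028, adjusted 0.012) with rho 0.98 (exact permutation p = 0.0004), and 0.98 without 2 libraries. In HFD KO r was 0.95 (n = 9, exact permutation p = 0.0002, adjusted 0.0018) with rho 0.87 (exact permutation p = 0.0045), and 0.73 without 2 libraries. In HFD HET r was 0.63 (n = 11, permutation p = 0.047, adjusted 0.096), rho was 0.46 (permutation p = 0.15) and r fell to 0.38 without 2 libraries, so the relation there rested on those libraries. With summed adipocyte markers, Mki67 on HFD had r = −0.77 (permutation p = 1e-05, adjusted 0.00021), rho = −0.58 (permutation p = 0.0015, adjusted 0.0070) and r = −0.67 without 2 libraries. In HFD KO r was −0.89 (exact permutation p = 0.0012, adjusted 0.0059) and −0.88 without 2 libraries. In HFD WT it was −0.73 (exact permutation p = 0.041, adjusted 0.087), in HFD HET −0.68 (permutation p = 0.028, adjusted 0.061) and on chow −0.44 (permutation p = 0.074, adjusted 0.12). Without 2 libraries these 3 values were −0.03, −0.15 and −0.03, so there the relation rested on those libraries.

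Other marker sums also followed Mki67 over libraries pooled across genotypes, so the pooled relation was not particular to the macrophage markers. Within HFD groups these relations were uneven. On chow, T and NK cell markers had r = 0.77 (permutation p = 0.0003, adjusted 0.0021), rho = 0.79 and r = 0.66 without 2 libraries. Their r was 0.49 in HFD WT, 0.56 in HFD HET and 0.02 in HFD KO. On HFD, neutrophil markers had r = 0.75 (permutation p = 1e-05, adjusted 0.00021), rho = 0.64 and r = 0.62 without 2 libraries. In HFD WT, HET and KO their r was 0.83, 0.81 and 0.67, and 0.55, −0.35 and 0.01 without 2 libraries. On chow it was 0.23, and −0.34 without 2 libraries. Markers of lipid-associated macrophages on HFD had r = 0.75 (permutation p = 4e-05, adjusted 0.00064), rho = 0.52 and r = 0.66 without 2 libraries. In HFD WT, HET and KO their r was 0.83, 0.36 and 0.91, and 0.63, 0.50 and 0.35 without 2 libraries. In all 32 relations were computed (64 tests adjusted together), and the sums share depth and library with Mki67.

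**Figure D3:**
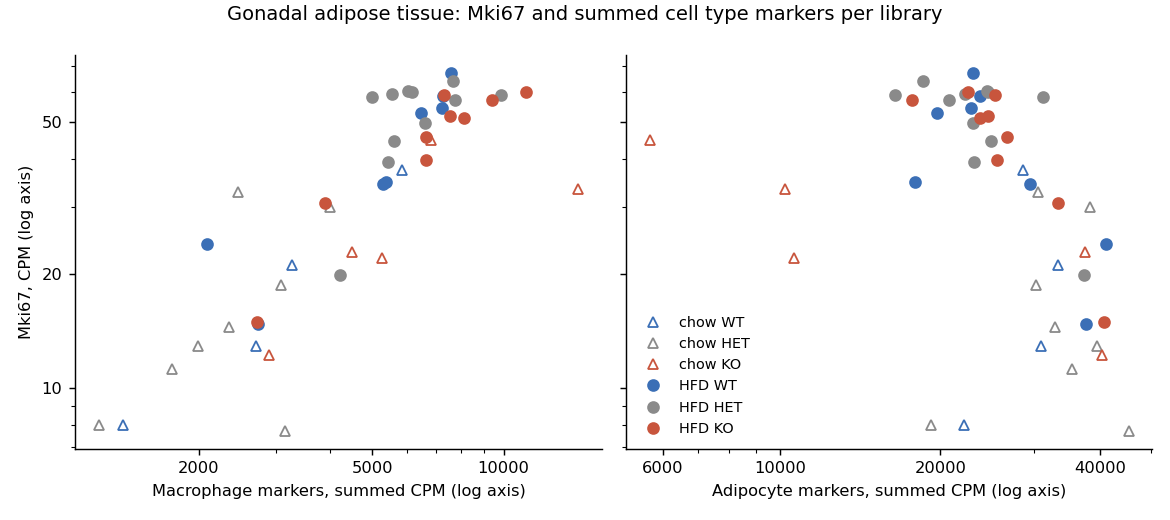
Mki67 CPM against summed macrophage markers (left) and adipocyte markers (right) in each gonadal adipose library, all axes logarithmic, open triangles for chow and filled circles for HFD, coloured by genotype. Pooled over genotypes, Mki67 is higher in libraries with more macrophage RNA within both diets (r = 0.84 on HFD and 0.77 on chow). On HFD it is lower in those with more adipocyte RNA (r = −0.77).

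Other genes of the same processes gave the following counts in HET adipose on HFD against chow, to be read against the 34.4% of all genes called and the 15.6% called higher. Of 40 tested genes of the kinetochore, spindle and cytokinesis, 34 rose and 3 fell, with a median log2 difference of 1.14, and the smallest adjusted p had Smc2 of condensin (2.11-fold), Spc25 of the kinetochore (3.20-fold) and Incenp of the passenger complex (2.19-fold). Of 34 tested genes of origin licensing and the replication fork, 14 rose and 3 fell (median 0.28). Gmnn, the inhibitor of relicensing, rose 2.05-fold and Lig1, the ligase that joins Okazaki fragments, 1.92-fold, while Pold2, a polymerase delta subunit, fell 1.45-fold. Of 9 suppliers of deoxynucleotides 3 rose and 1 fell (median 0.26): Dck (1.58-fold) and Samhd1 (1.74-fold), a salvage kinase and a hydrolase of deoxynucleotides, rose and Dtymk was 1.22-fold lower.

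Of 15 regulators of the E2F, DREAM and FoxM1 group 6 rose and 2 fell (median 0.21). E2f8, an E2F repressor, rose 3.47-fold and Foxm1, an activator of mitotic genes, 2.18-fold, and Lin52 of the DREAM complex was 1.49-fold lower. Of 10 G1 cyclins, kinases and Myc 2 rose and 1 fell (median 0.10), with Cdk6 2.07-fold higher, Cdc25a 1.32-fold higher and Ccnd3 1.30-fold lower. Of 19 CDK inhibitors, pocket proteins and checkpoint kinases 3 rose and 2 fell (median 0.09), with Rbl1 1.42-fold and Chek1 1.84-fold higher and Cdkn2c 2.65-fold lower. The G1 list (3 of 10 called) and the list of inhibitors and checkpoint kinases (5 of 19) had shares of called genes near or under that of all genes, which is no result about these lists. In KO, where 35.5% of all genes were called and 15% higher, the kinetochore list had 11 of 40 called higher and 1 lower (median 0.66) and the origin list 7 of 34 and 1 (median 0.13). Counting both directions, 12 of 40 and 8 of 34 are shares under that of all genes. In WT no gene of the kinetochore list was called (median 0.70).

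Comparisons of genotypes in adipose on chow gave few calls among the members. In KO against HET, where 32.4% of all genes passed, 4 members were higher: Mcm4 (1.35-fold, adjusted p = 0.0094), Mcm3 (1.5-fold), Cdk1 (1.95-fold) and Tyms (1.36-fold). Cdc45 was 1.29-fold lower (adjusted p = 0.033). The count of 5 rested on single libraries: it was 9 without chow KO 3, 1 without chow KO 4, 1 without chow KO 5, and 0 when only these groups were fitted. In KO against WT, where 15% of all genes passed, Cdc45 was 1.49-fold lower (log2 −0.57, SE 0.15, adjusted p = 0.010) and no other member was called. This count was 0 without chow KO 4, 3 without chow KO 3 and 2 without chow WT 3. It was also 0 when only these groups were fitted, under both limits on RNA of other tissues, and at an adjusted p under 0.01. Markers of blood cells moved with these comparisons: 6 of 7 B and plasma cell markers and 5 of 14 macrophage markers were higher in chow KO than in WT, and 7 of 7 and 11 of 14 were higher than in HET. T and NK cell markers (3 of 11 against WT, 9 of 11 against HET) and neutrophil markers (4 of 6 and 5 of 6) were higher too, and 1 of 8 adipocyte markers was lower than in WT and 3 of 8 than in HET. B and plasma cell sums were 116 to 2630 CPM in chow KO, 31.8 to 197 in chow WT and 51.8 to 114 in chow HET, and the part of these cell types in the members' values was not tested.

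In HET against WT on chow, edgeR called 0 members and 0% of all genes (DESeq2 called none, and 1 member had an unadjusted p under 0.05). On HFD edgeR called 0 members for KO against WT (0.0344% of all genes, 1 with an unadjusted p under 0.05), 0 for KO against HET (0.0138%, none under 0.05) and 0 for HET against WT (0.00688%, none under 0.05), and DESeq2 also called none. The log2 difference of Mki67 between HFD KO and WT was 0.09 (SE 0.31), of Cdk1 0.33 (SE 0.27), of Mcm6 0.17 (SE 0.19) and of E2f1, the smallest p among them, 0.34 (SE 0.13, adjusted p = 0.34).

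Liver held less RNA of these genes, and 15 of the 35 members did not pass the filter on low counts in the chow and HFD fit. These were Cdc6, Tk1, Ccne1, Ccne2, Ccna2, Ccnb1, Aurkb, Plk1, Bub1, Bub1b, Cdc20, Ube2c, Cenpe, Kif11 and Kif20a. They were not tested in the main fit of chow and HFD. For HFD against chow averaged over genotypes, 6 members were called without this filter and 4 with it. Tk1 was at 0 in both tissues, and low counts limit what can be seen in the others. Kif11, for example, was at 0 in all 5 chow KO livers and in 4 of 5 chow WT livers.

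Averaged over genotypes, 4 of 20 tested members rose in liver on HFD and none fell, and the 4 were helicase subunits. Of all tested genes 23.4% were called in either direction, and 1233 of 11064 were higher. The count of 4 is small, and no result about the list is drawn from it. With the replicate block 3 were called, 2 higher and 1 lower, of which 2 were among those 4. Mcm2 rose 1.73-fold (log2 0.79, SE 0.15, adjusted p = 0.00018), Mcm5 1.5-fold, Mcm4 1.41-fold and Mcm3 1.32-fold. In that comparison 4 of 7 lipid-associated macrophage markers and 6 of 8 fibroblast and stellate cell markers rose, and 1 of 14 macrophage markers; their part was not tested. Mcm2 was at 2.71 to 3.98 CPM in chow WT liver (median 3.08), 1.76 to 8.96 in chow HET (median 4.65) and 3.78 to 6.96 in chow KO (median 5.26). On HFD it was at 3.77 to 11.9 CPM in WT (median 9.43), 3.77 to 10.4 in HET (median 7.18) and 3.46 to 10.0 in KO (median 6.74). The diets overlapped in each genotype. In WT alone, Mcm2 was the 1 member called (2.96-fold, adjusted p = 0.0038, against 1.87% of all genes), and the count was 2 without chow WT 4. In HET the 1 member called was Birc5, 1.84-fold lower on HFD (adjusted p = 0.017, against 14.2% of all genes), with 1.58 to 5.82 CPM on chow and 0.410 to 3.31 on HFD. The count in HET was 2 without libraries that held muscle or pancreas RNA, 0 at an adjusted p under 0.01 and 0 with the replicate block. In KO edgeR and DESeq2 called none (10.7% of all genes, 2 members with an unadjusted p under 0.05).

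Between genotypes in liver, 1 member passed. Aurka, a kinase of the spindle poles, was 1.84-fold higher in chow KO than in chow HET (log2 0.88, SE 0.22, adjusted p = 0.0075, against 13.5% of all genes), at 4.35 to 8.27 CPM in KO (median 5.67) and 2.11 to 4.03 in HET (median 3.36) with no overlap. This call was lost (0 members) without libraries that held muscle or pancreas RNA. Of the macrophage markers 12 of 14 were also higher in chow KO than in chow HET, with sums of 570 to 2480 CPM against 253 to 894, and their part in the Aurka value was not tested. In chow KO against WT edgeR called 0 of 20 members (3.4% of all genes, 5 members with an unadjusted p under 0.05), and 17 of 20 were positive with a median log2 difference of 0.45. In that comparison 10 of 14 macrophage markers (median 1.5) and 2 of 3 tested neutrophil markers (median 2.17) were higher in KO, and their part was not tested. In HFD KO against WT it called 0 (1.72%, 1 under 0.05) and 4 of 20 were positive (median −0.11). The difference between these KO effects gave 0 calls (0.145%, 6 under 0.05), and 1 without chow KO 4 or without chow WT 4.

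The other liver genotype comparisons called 0 members each: HFD KO against HET (2.39% of all genes, 1 member with an unadjusted p under 0.05), chow HET against WT (0%, 3), HFD HET against WT (0.00904%, 2), Alios KO against WT (0.539%, 1), Alios KO against HET (0.344%, 6), Control HET against WT (0.00929%, 4) and Alios HET against WT (0.00929%, 0). DESeq2 also called 0 in each comparison in which edgeR called 0 in liver. Alios against Control gave 0 members in WT (0% of all genes, 2 with an unadjusted p under 0.05) and 0 in HET (0.26%, 8), where 15 of 17 were positive with a median of 0.89. Of these, Mcm5, Cdk1, Cdca8 and Nusap1 had Alios HET but no Control HET libraries over the filter's cutoff, so their sign is no support for a rise. Summed over members, Alios HET 3 and 4 held 255 and 167 CPM. The other Alios HET livers held 80.1 to 87.4 CPM, and Control HET 69.3 to 77.3. Without Alios HET 1 the HET count was 1. Control KO is a single library and was in no fit.

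Single livers stood out more than groups did. Mki67 in liver ranged from 0.754 to 18.6 CPM in HFD WT (median 5.20) and from 2.96 to 28.5 in HFD KO (median 4.35). It ranged from 0.896 to 15.9 CPM in Control WT (median 2.15) and from 1.85 to 29.8 in Alios HET (median 3.71). A score per library, the mean over 34 members of the z-score of log2 CPM within the tissue, describes this across members, and it was not tested. In adipose the mean score was −0.70 ± 0.89 (SD) in chow WT, −0.96 ± 0.55 in chow HET, −0.55 ± 0.57 in chow KO, 0.25 ± 0.58 in HFD WT, 0.59 ± 0.46 in HFD HET and 0.52 ± 0.65 in HFD KO. In liver it was −0.35 ± 0.17, −0.21 ± 0.54 and 0.14 ± 0.22 on chow, and 0.42 ± 0.76, 0.13 ± 0.47 and 0.22 ± 0.54 on HFD, in WT, HET and KO. On the Control diet it was −0.15 ± 1.04 in WT and −0.80 ± 0.16 in HET, and on Alios 0.11 ± 0.35 in WT, 0.30 ± 1.12 in HET and −0.26 ± 0.24 in KO.

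**Figure D4:**
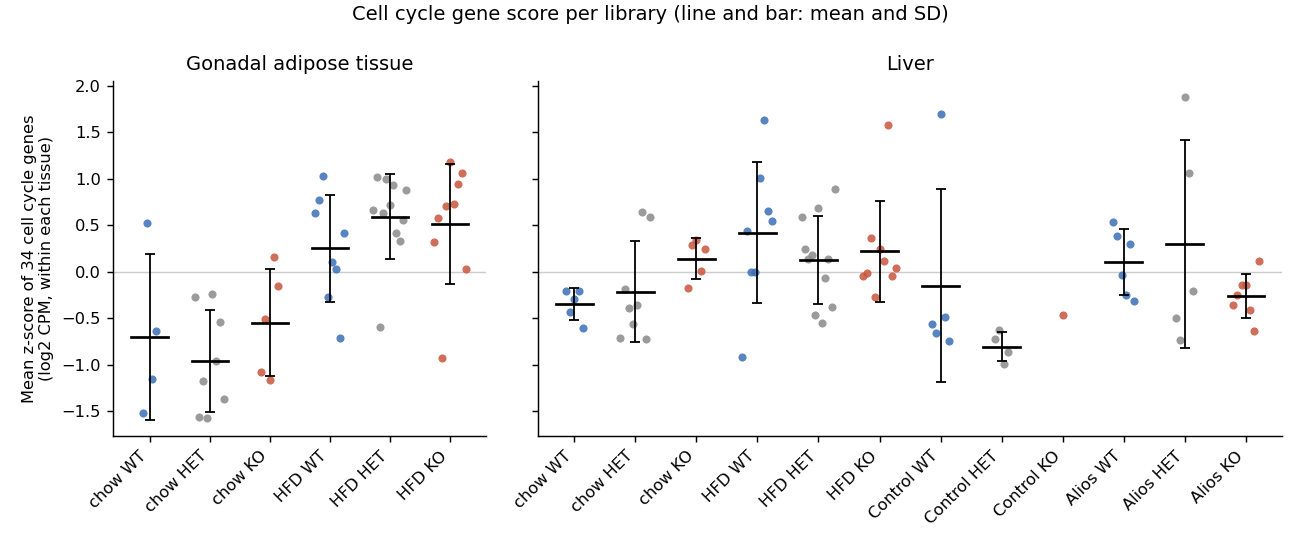
Score of 34 members per library (mean z-score of log2 CPM within each tissue) in gonadal adipose tissue and liver by diet and genotype, with group mean (line) and SD (bar). In adipose the HFD means (0.25 to 0.59) lie above the chow means (−0.96 to −0.55). The highest liver scores are those of single libraries of Alios HET (1.88), Control WT (1.70), HFD WT (1.64) and HFD KO (1.58).

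In the same 44 mice on chow and HFD, 28 of 31 tested members were higher in adipose than in liver, against 49.5% of all genes higher in adipose and 91.9% called in either direction. Of the 31, 11 did not pass the filter in liver alone and entered through their adipose libraries, so they had to differ and the count of 28 is no support for a difference of the list. Plk1 (7.90-fold), Ube2c (7.70-fold), Aurkb (7.49-fold) and Cdc6 (7.11-fold) are of this kind, and their values are given as a description. Among members that passed in both tissues, Mki67 was 4.00-fold higher, in 42 of 44 mice, Mcm6 was higher in 44 of 44, Pcna was 1.86-fold and Mcm7 1.44-fold higher. The size of these folds rests on scaling both tissues together. Without TMM, over 45 adipose and 46 liver libraries, Mki67 averaged 37.6 CPM in adipose and 5.43 in liver. Pcna averaged 40.2 and 11.4 CPM, and Mcm7 28.2 and 11. Tyms was the 1 member called lower in adipose (1.41-fold, adjusted p = 1.5e-07, higher in 8 of 44 mice), but this direction rests on scaling both tissues together, since per count of each library's total without TMM its mean was 9.1 CPM in adipose and 7.05 in liver. Rrm2 (log2 −0.12, SE 0.12) and Aurka (0.10, SE 0.09) were not called, and without TMM their means were 9.76 and 7.61 CPM in adipose and 5.45 and 3.97 in liver. Tissue and library preparation cannot be told apart here. Birc5, 1.93-fold higher over all mice, was not called in chow mice alone, where its log2 difference was −0.22.

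Levels of different genes were compared per kilobase of transcript, with the tissues normalized together, so they differ in scale from the CPM given above for each tissue. In adipose Pcna was highest at 19.8 CPM per kb, then Mcm6 (10.4), Mcm3 (8.30), Ube2c (7.42), Birc5 (7.36) and Mcm7 (7.15), and Kif11 was lowest of the counted members at 0.270. In liver the order began with Pcna (10.1) and Mcm7 (4.92), and Plk1 (0.208), Cdc6 (0.172), Bub1 (0.154), Cenpe (0.143) and Kif11 (0.0564) were among the lowest. Tyms and Rrm2 stood at 2.15 and 3.29 CPM per kb in adipose and at 2.97 and 3.34 in liver.

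**Figure D5:**
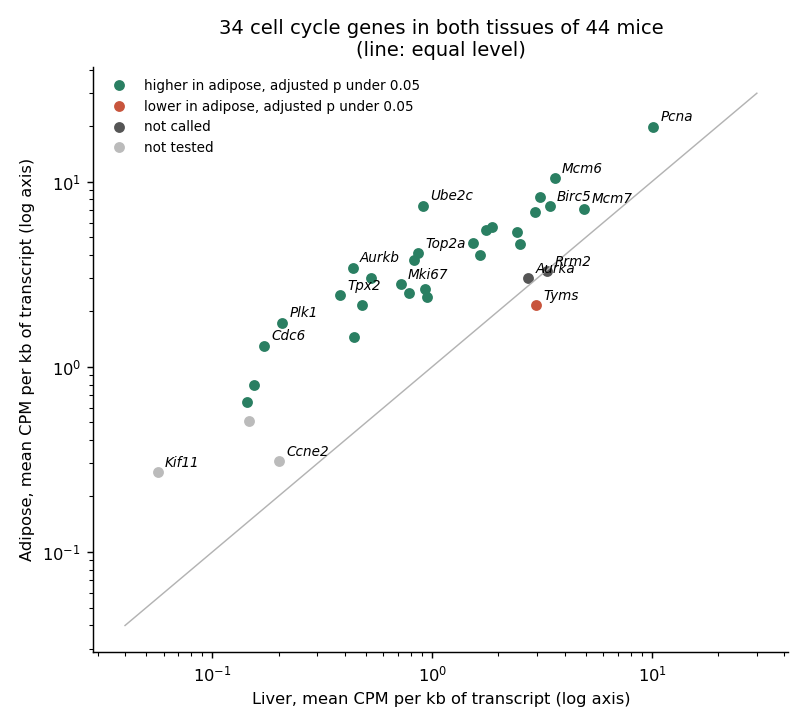
Mean CPM per kilobase of transcript of 34 members in adipose against liver of the same 44 mice, both axes logarithmic, with the line of equal level. Mki67 (2.78 against 0.72) and Top2a (4.10 against 0.86), which passed the filter in both tissues, lie above the line. Rrm2, Aurka and Tyms lie near it. Plk1 (1.73 against 0.208) and other mitotic genes that did not pass in liver lie above it too. Their place is given as a description and is no support for a difference.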

How the data were processed

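Libraries were made from total RNA with the TruSeq Stranded mRNA kit and read as single 50-base reads, per the labels' protocols. Per the submitters' processing notes, STAR 2.5.1b, featureCounts 1.5 and build GRCm38.p5 were used. No source used here states the strand option. Each tissue has 1 deposited table of unnormalized counts for Ensembl genes. Of 121 labelled samples 120 had a column, and 1 column that matched no label was not used.

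GENCODE M21 gave symbols to 25723 of 25759 genes. Groups came from the sample titles. Counts were tested with edgeR 4.0.16 quasi-likelihood fits (TMM normalization, filterByExpr with a count minimum of 10 and a total of 15, Benjamini-Hochberg adjustment over all genes tested, threshold 0.05, two-sided), in 1 fit each for adipose, liver on chow and HFD, and liver on Control and Alios. Tissues were compared with the mouse as a block. The score used a prior count of 2, members with a mean of at least 0.1 CPM and libraries of at least 500000 counts. DESeq2 1.42.0, other filters, size factors, thresholds and sets of samples were alternatives. The fits were tested on simulated counts. Members and gene lists were chosen with earlier results of these data known. All members could be named, and of each other list up to 3 called genes with the smallest adjusted p. No 2 libraries of a group held the same values (163 adipose and 229 liver pairs). Nothing in the labels says whether libraries of a group are separate litters or cages, and p-values measure only the spread between these samples.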

Additional observations from a re-analysis of the deposited data

Results flagged for a closer look

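In groups of 4 to 10 libraries, 9 measures were screened for a library whose gap to the next exceeded Dixon's 95% limit, and 16 of 135 group tests did so. Chance flags about 1 in 20 only where values are normally distributed and measures are independent. Here the measures are single members and the score over the members, so 1 liver was flagged in several. The share of 16 in 135 can therefore not be set against that rate. The Control WT 3 liver had a score of 1.70, with 15.9 CPM of Mki67, 14.2 of Top2a, 8.81 of Cdk1, 12.2 of Mcm2 and 4.26 of Birc5. It had the most lipid-associated macrophage RNA of its group (141 CPM, others 66.3 to 74.5) and 184 CPM of pancreas markers. The HFD KO 7 liver had a score of 1.58, with 28.5 CPM of Mki67, 20.7 of Top2a, 6.62 of Cdk1 and 5.75 of Aurka. Its T and NK cell markers summed to 58.1 CPM (others 3.86 to 19.2) and its B and plasma cell markers to 162 CPM (others 4.02 to 45.0). The part of these cells was not tested.

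Mki67 stood apart at 18.6 CPM in the HFD WT 6 liver and at 15 CPM in the chow HET 6 liver. Aurka stood apart at 3.99 CPM in the Control HET 2 liver. In chow WT 3 adipose, Cdk1 was at 15.5 CPM and Aurka at 9.22 CPM. The KO effect on Cdc45 in adipose differed between HFD and chow by 0.66 on the log2 scale, tested as an interaction.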

How the results depend on the processing

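Over 31 counts of called members, 404 of 447 alternative settings stayed within 1.5 times the count and 43 did not. At an adjusted p under 0.01 the counts were 0 in liver HET HFD against chow, 2 in liver HFD averaged over genotypes, 0 in adipose chow KO against WT, 1 in chow KO against HET, 8 in KO HFD against chow and 0 in the KO effect on HFD minus chow. Fitting only the groups compared gave 0 in adipose chow KO against WT, chow KO against HET and the KO effect. Adipose WT HFD against chow gave 1 with a mean of at least 1 CPM and 2 with DESeq2. Without libraries holding other tissue, limits chosen after seeing the data, the counts were 0 in liver chow KO against HET, 2 in liver HET HFD against chow, 0 in adipose chow KO against WT and in the KO effect under both limits, 0 in chow KO against HET, and 1 in HET and 1 in KO HFD against chow under the lower limit. Under the higher limit the KO minus HET diet effect gave 1. The cause was not tested. Birc5 was −0.22 (log2, adipose against liver) in chow mice only, the 1 member that changed sign. Calls of single genes were lost in 121 pairs of member and alternative and in 15 pairs for other genes.

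Same-numbered libraries did not deviate together (median correlation −0.022 over 297 liver pairs and −0.015 over 89 adipose pairs), so numbers do not pair the mice. With the replicate block, liver HET HFD against chow gave 0, the adipose KO effect 0 and the KO minus HET diet effect 1, while adipose HET HFD against chow gave 30.

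Libraries of the groups of 2 to 5 were left out in turn, and those of larger groups, HFD HET 11 and HFD KO 3 included, were not. This gave 1 to 2 in liver WT HFD against chow, 0 to 1 in the liver KO effect, 3 to 5 in liver HFD averaged over genotypes and 0 to 1 in liver HET Alios against Control. In adipose the range was 0 to 3 in chow KO against WT, 1 to 9 in chow KO against HET, 0 to 19 in WT HFD against chow, 9 to 17 in KO, 0 to 1 in the KO effect, 30 to 33 averaged over genotypes and 0 to 4 in the KO minus HET diet effect. Liver counts of 79 to 1479 per library limit what can be seen in the rarer members.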

Other observations

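Mki67 in the liver was set against Mki67 in the adipose tissue of the same mouse. Over 28 HFD mice Pearson's r was 0.25 (permutation p = 0.20, adjusted 0.26) and Spearman's rho 0.18 (permutation p = 0.35, adjusted 0.40). Without the 2 mice farthest from the median r was 0.54. Over 16 chow mice r was 0.17 (permutation p = 0.52, adjusted 0.54), rho was 0.20 (permutation p = 0.45, adjusted 0.49) and r without 2 mice was 0.49. Neither of these relations passed adjustment over the 64 tests.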
